A study of Mus musculus with 8 samples.

Results

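The 41 genes described here encode the machinery that moves cargo along the primary cilium, and their RNA was measured in 8 mouse livers. They were chosen by name, as intraflagellar transport and BBSome genes, by a list written with earlier results on the counts of these 8 livers in view. The values behind that choice are not recorded. The differences between genotypes below are therefore a description, and no p-value is offered in support of them. All 41 were found among the 49585 genes of the count table, and 40 passed the filter on low counts among 16496 genes tested, with Kif17 left out. The members lie on 16 chromosomes.

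The primary cilium is a single antenna on the cell surface, built on a basal body and lacking protein synthesis of its own. Kinesin-2 motors carry trains of the IFT-B and IFT-A complexes toward its tip, and dynein-2 brings them back to the base. The BBSome is an adaptor that rides on these trains and takes membrane proteins, such as signaling receptors, out of the cilium. In the liver, the cells that line bile ducts (cholangiocytes) carry a primary cilium that senses bile flow, while mature hepatocytes are generally held to have none.

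The study compared livers of males with altered p53 in hepatocytes, after 3 months on a high-fat, choline-deficient diet (HFCD) begun at 21 days of age. The LP245/+ group held 3 livers labelled Alb-CreTG and Trp53wm-R245W/+, in which Cre turns a conditional allele that encodes wild-type p53 into one that encodes p53R245W. The LPfl/+ group held 2 livers labelled Alb-CreTG and Trp53fl/+, in which Cre deletes 1 allele. The LP+/+ group held 3 livers without Cre, labelled Alb-Cre0, of which replicates 1 and 2 carried Trp53fl/+ and replicate 3 carried Trp53wm-R245W/+. The text of the study instead gives this cohort as Alb-Cre positive, while its methods allow littermates of either kind as controls. The labels are followed here, and the Cre status of the LP+/+ livers was not tested. The albumin promoter drives Cre in hepatocytes and, according to the text of the study, also acts in cholangiocytes. Each library is 1 liver, so the errors below rest on the spread between mice.

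Total counts ran from 26304526 to 31370714 per liver. Trp53 itself had 234, 269 and 215 counts in the LP+/+ livers, 125 and 176 in the LPfl/+ livers, and 306, 291 and 190 in the LP245/+ livers, so the LPfl/+ livers were the lowest. The tissue label fits the RNA: 9 hepatocyte markers added up to between 117600 and 164500 CPM (counts scaled to a fixed library size) per liver. Of 14 cholangiocyte markers, none was at 0 in every liver, and their sum ran from 86.41 to 98.94 CPM in LP+/+, from 92.17 to 95.6 in LPfl/+ and from 83.75 to 97.88 in LP245/+. The keratin Krt19, which defines bile duct cells, was counted 23, 33 and 36 times in LP+/+, 27 and 27 in LPfl/+ livers, with 27, 31 and 28 in LP245/+. In whole tissue, fewer cells of a type and less RNA per cell cannot be told apart.

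The promoters of the members were searched for a motif, which the choice by name did not use. Ciliary genes are known as targets of RFX transcription factors, which bind the X-box, an inverted repeat whose left arm is often GTTGCC. Promoters from RefSeq (build GRCm38.p6, 250 bases before to 50 after a transcript start) were matched for 36 of the 41 genes, as 37 promoters. GTTGCC, searched on both strands, was found in 14 of the 37 (37.8%), against 4111 of all 32851 promoters of that length (12.5%) and 12.6% of those of protein-coding genes. GTTGCC followed after 5 bases by AAC, the outer end of the right arm, was found in 3 of the 37 (8.11%), against 0.572% of all promoters and 0.607% of protein-coding ones. This spaced form, which contains the shorter one, was added after the data were seen. Only this spacing was searched, so arms at other distances are neither counted nor marked. The longer GTTNCCATG was found in 0 of the 37 and in 1.93% of all promoters. By role, GTTGCC was present in 3 of 5 peripheral IFT-B genes, 3 of 8 core IFT-B genes, 2 of 5 IFT-A genes, 3 of 7 BBSome subunits, 1 of 3 dynein-2 genes and 2 of 4 kinesin-2 genes. It was in 0 of 2 chaperonin-like genes, and in neither Tulp3 nor Arl6. A match is a description of the letters in this window, not evidence of binding.

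The 250 bases before the start are shown for the 3 genes with the spaced motif and for Ift57, which holds GTTGCC at 2 places, each 5′ to 3′ on the strand of the gene. Capitals mark GTTGCC, or GGCAAC where the match is on the other strand, and the AAC or GTT of the opposite arm in the spaced form.
Bbs7, chr3:36613390-36613639, minus strand: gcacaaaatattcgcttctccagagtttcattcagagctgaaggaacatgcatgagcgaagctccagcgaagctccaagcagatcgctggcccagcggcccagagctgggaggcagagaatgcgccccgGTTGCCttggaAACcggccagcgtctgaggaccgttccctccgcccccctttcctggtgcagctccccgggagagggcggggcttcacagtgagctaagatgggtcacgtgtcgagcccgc
Ttc26, chr6:38381274-38381523, plus strand: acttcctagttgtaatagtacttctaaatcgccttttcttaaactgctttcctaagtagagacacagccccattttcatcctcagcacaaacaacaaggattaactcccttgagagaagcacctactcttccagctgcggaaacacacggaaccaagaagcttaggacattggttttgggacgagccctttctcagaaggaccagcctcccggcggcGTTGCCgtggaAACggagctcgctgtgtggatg
Ift140, chr17:25015836-25016085, plus strand: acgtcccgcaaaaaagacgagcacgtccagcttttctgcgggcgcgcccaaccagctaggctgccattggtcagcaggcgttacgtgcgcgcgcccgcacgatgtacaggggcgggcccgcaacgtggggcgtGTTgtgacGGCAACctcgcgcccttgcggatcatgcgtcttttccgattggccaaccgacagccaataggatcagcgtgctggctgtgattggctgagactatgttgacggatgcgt
Ift57, chr16:49699044-49699293, plus strand: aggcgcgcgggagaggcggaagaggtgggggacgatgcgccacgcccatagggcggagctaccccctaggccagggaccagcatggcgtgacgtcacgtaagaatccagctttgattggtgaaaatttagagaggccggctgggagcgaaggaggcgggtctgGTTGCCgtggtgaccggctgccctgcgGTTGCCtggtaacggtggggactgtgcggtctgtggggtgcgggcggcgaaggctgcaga
The motif of Bbs7 begins 121 bases before the start, and that of Ttc26 begins 33 bases before it. Ttc26 has a further match on the other strand from base 2 after the start. In Ift57 the matches begin 87 and 60 bases before the start. The latter is followed at a shorter distance by an AAC, which the search did not cover.

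The genes were expressed at low levels that differed widely from each other. Levels between genes are given as CPM per kilobase of exon. The median of the 40 genes tested was 1.16, against 2.03 for all genes tested. Ift20, a peripheral IFT-B subunit that also works at the Golgi, had the highest mean level of the members (24.7 ± 2.51, SD over 8 livers), followed by Ift52, a scaffold of the IFT-B core (8.27 ± 0.38), and by Ift46, another core subunit (3.89 ± 0.56). At the low end stood Ttc26, which encodes IFT56 (0.158 ± 0.039), Bbs12 (0.136 ± 0.057) and Kif17 (0.0116 ± 0.018). The medians by complex were 1.68 for 10 core IFT-B genes, 1.38 for 6 peripheral IFT-B genes, 0.791 for 6 IFT-A genes, 1.13 for 7 BBSome subunits, 0.646 for 4 dynein-2 genes and 1.59 for 4 kinesin-2 genes. Within the IFT-B core the levels ran from 0.158 to 8.27.

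**Figure D1:**
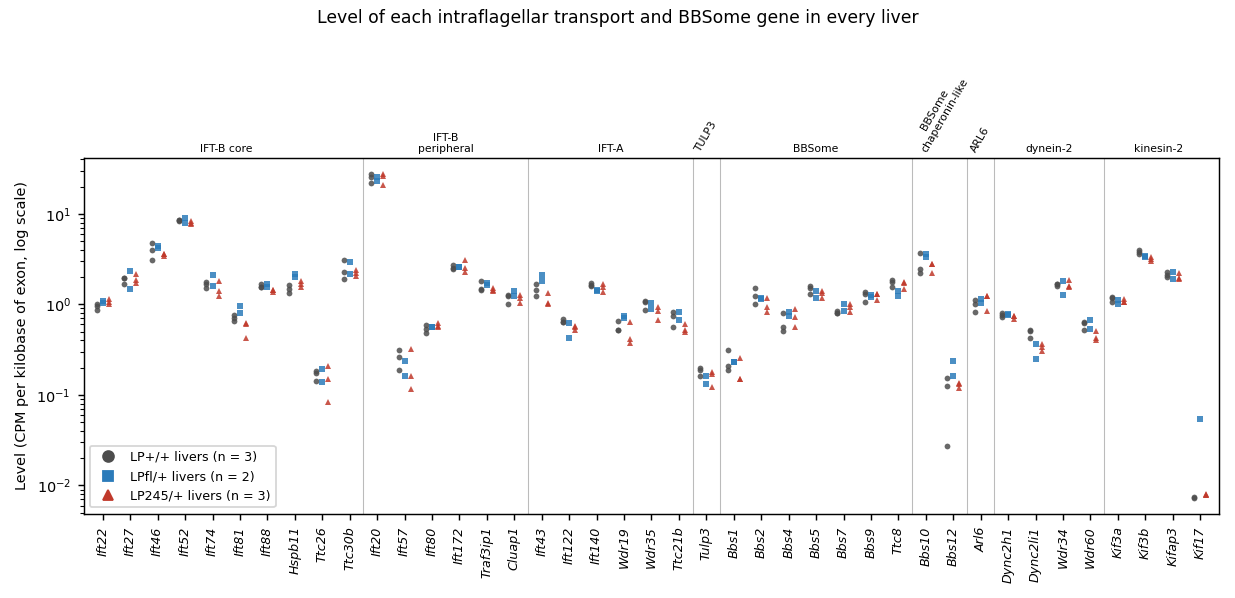
Level of each of the 41 genes in each liver, in CPM per kilobase of exon on a log axis, grouped by complex; each point is 1 liver, and livers at 0 are not drawn. Ift20 stands highest, at 20.7 to 27.6. In each pair of genotypes taken alone, the livers overlap for most genes.

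Ift20 had 955.5, 1106 and 1196 normalized counts (counts divided by DESeq2 size factors) in the LP+/+ livers, 991.9 and 1086 in LPfl/+ livers, with 1116, 890.2 and 1192 in LP245/+. Ift52 had 668.6, 674.3 and 678.5 in LP+/+, 627.2 and 703.8 in LPfl/+ livers, with 620, 614.3 and 666 in LP245/+. The groups overlapped for Ift20, and for Ift52 the LP245/+ livers lay just below the LP+/+ livers. Kif17, the homodimeric kinesin-2 of neurons and sensory cells, was counted 1, 1 and 0 times in LP+/+, 0 and 7 in LPfl/+ livers, with 1, 1 and 1 in LP245/+. All of its livers but LPfl/+ replicate 2 were below a floor of 3 counts (at most 1.14e-05% of a library), so a difference was not detectable at this depth. Of the 41 genes, 39 had at least 3 counts and 22 at least 100 counts in every liver. The within-genotype SD was taken on log2 CPM with 0.5 added, which shrinks the spread of genes with few reads. Its median was 0.171 over the 40 genes, against 0.194 over 6097 genes of like level.

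No member passed the cutoff (a log2 fold change of 1 or more in size, with an adjusted p of at most 0.05) in edgeR's quasi-likelihood test. The cutoff was passed by 1 of all 16496 genes (0.00606%) in LP245/+ compared with LP+/+, and by 0% in both LPfl/+ compared with LP+/+ and LP245/+ compared with LPfl/+. DESeq2 put 0 members past it in each comparison, beside 10, 9 and 56 of all 30212 genes in that fit. The lowest Benjamini-Hochberg adjusted p of a member in edgeR was 0.795, 0.704 and 0.402 in these 3 comparisons. Log2 fold changes of the 40 genes lay between -0.53 and 0.34, between -0.66 and 0.96, and between -0.79 and 0.34.

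In LP245/+ compared with LP+/+, 29 of the 40 genes had a lower estimate (72.5%), with a median log2 fold change of -0.11. Of all genes tested, 49.4% had a lower estimate, with a median of 0.0029. An unadjusted p below 0.05 was reached by 0 members in the higher direction, beside 3.55% of all genes, and by 2 in the lower direction, beside 2.38%. The 2 were Kif3b and Wdr60. Every LP245/+ liver was below every LP+/+ liver for 7 members, beside 5.79% of all genes, and above for 0, beside 6.03%.

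In LPfl/+ compared with LP+/+, 18 of the 40 had a lower estimate (45.0%), with a median of 0.02. Of all genes tested, 50.2% had a lower estimate, with a median of -0.00103. An unadjusted p below 0.05 was reached by Hspb11 in the higher direction, beside 4.22% of all genes, and by Ttc8 in the lower direction, beside 2.67%. The livers did not overlap for 7 members that were higher, beside 11.9% of all genes, and for 6 that were lower, beside 13.2%.

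In LP245/+ compared with LPfl/+, 24 of the 40 had a lower estimate, with a median of -0.09. Of all genes tested, 49.2% had a lower estimate, with a median of 0.00387. An unadjusted p below 0.05 was reached by 0 members in the higher direction, beside 4.07% of all genes, and by Ift43, Ift81, Wdr19 and Ttc21b in the lower direction, beside 4.44%. The livers did not overlap for 12 members that were lower, beside 13.3% of all genes, and for Ttc8, which was higher, beside 12.1%. The 3 comparisons share livers and are not independent of each other.

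**Figure D2:**
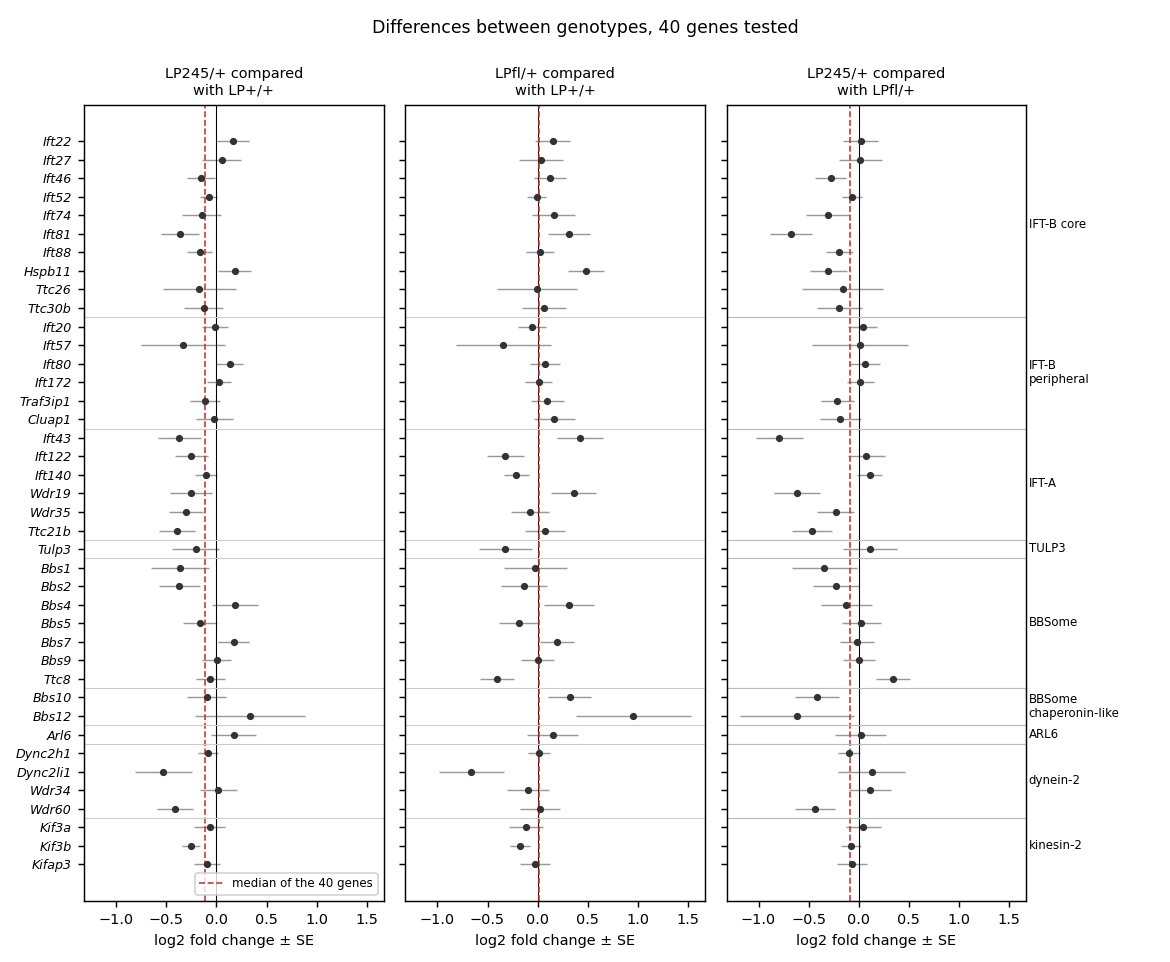
Log2 fold change with its standard error (derived from edgeR's F test) for the 40 genes tested, in the 3 comparisons. The dashed line is the median of the 40. The median lies at -0.11, 0.02 and -0.09, and the estimates span -0.79 to 0.96.

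The small displacement of the LP245/+ livers was present in each of the 3. The median deviation of the 40 genes from their own mean over the 8 livers, on log2 CPM with 0.5 added, was 0.0412, 0.0408 and 0.0384 in the LP+/+ livers, and 0.0625 and 0.0329 in the LPfl/+ livers. It was -0.0972, -0.0289 and -0.064 in the LP245/+ livers, below all 5 others. For all genes tested the same median stayed between -0.0076 and 0.0094. Between 13 and 14 of the 40 genes were above their mean in each LP245/+ liver, and between 22 and 27 in the other livers.

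**Figure D3:**
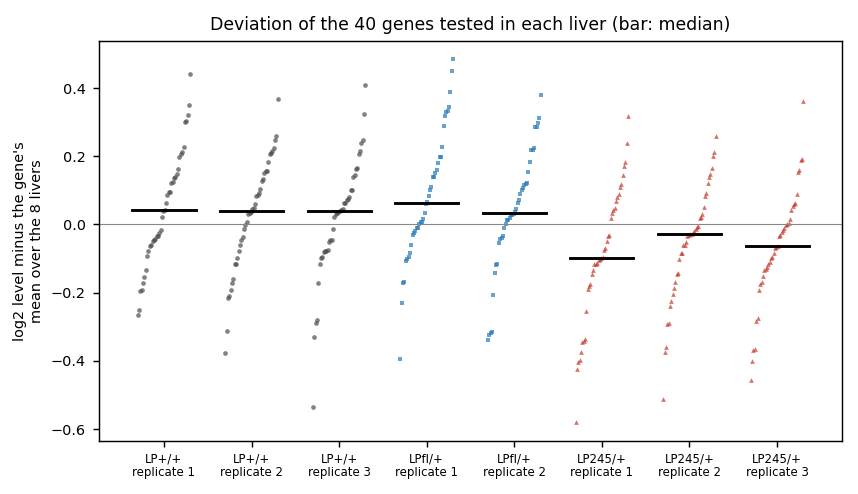
Deviation of each of the 40 genes tested from its mean over the 8 livers, on log2 CPM with 0.5 added; points are genes in order of value and the bar is their median. The bars lie between 0.0329 and 0.0625 in the 5 LP+/+ and LPfl/+ livers and between -0.0972 and -0.0289 in the 3 LP245/+ livers.

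The libraries carry numbers in 2 series, one with the 3 LP245/+ livers and LP+/+ replicates 2 and 3, the other with LP+/+ replicate 1 and both LPfl/+ livers. Within the first series, 28 of the 40 genes were lower in LP245/+ than in LP+/+, with a median log2 ratio of -0.131, and 49.4% of all genes were lower. Within the second, 22 of the 40 were lower in LPfl/+ than in the 1 LP+/+ liver, with a median of -0.0102, and 49.7% of all genes were lower. LP245/+ and LPfl/+ livers never share a series, so they have no within-series value. Through the LP+/+ livers, which are in both, a fit with the series as a covariate gave a median of -0.12 for it.

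IFT-A is the complex that turns trains around for the return trip and carries receptors into the cilium, and all 6 of its genes had lower estimates in LP245/+ than in LP+/+ (median -0.28). Against LPfl/+, 4 of the 6 were lower (median -0.35). Ift43, a small IFT-A subunit, had 79.22, 57.63 and 67.76 normalized counts in LP+/+, 98.28 and 83.81 in LPfl/+ livers, with 46.5, 47.49 and 63.13 in LP245/+. Both LPfl/+ livers were above every other liver, and LP245/+ and LP+/+ overlapped. The log2 fold change of Ift43 was -0.79 ± 0.23 (SE) against LPfl/+ and -0.37 ± 0.21 against LP+/+. With the library series as a covariate the former was -0.46.

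Wdr19, which encodes the IFT144 subunit, had 212.6, 167.1 and 166.6 normalized counts in LP+/+, 228 and 236.3 in LPfl/+ livers, with 201.5, 120.2 and 132.4 in LP245/+. LP245/+ replicate 1 lay within the LP+/+ range and the other two LP245/+ livers lay below it. The log2 fold change of Wdr19 was -0.61 ± 0.23 against LPfl/+ and -0.26 ± 0.21 against LP+/+. With the series as a covariate these were -0.26 and -0.13. The value against LP+/+ was -0.13 without LP+/+ replicate 1, -0.52 without LP245/+ replicate 1 and -0.12 without LP245/+ replicate 2. Ttc21b, which encodes IFT139, had 216.4, 195.9 and 149.6 in LP+/+, 214.8 and 177.7 in LPfl/+ livers, with 159.1, 128.3 and 137.5 in LP245/+, where only replicate 1 reached into the LP+/+ range. Its log2 fold change was -0.47 ± 0.20 against LPfl/+, or -0.14 with the series as a covariate, and -0.39 ± 0.18 against LP+/+.

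The other IFT-A genes, Ift122, Ift140 and Wdr35, had log2 fold changes of -0.25, -0.10 and -0.31 in LP245/+ against LP+/+. Ift122 and Ift140 were lower in both LPfl/+ livers as well, at -0.32 and -0.21 against LP+/+. Tulp3, the adaptor that links IFT-A to receptor cargo, was at -0.21 ± 0.23 in LP245/+ and -0.32 ± 0.26 in LPfl/+, each against LP+/+.

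IFT-B forms the backbone of the trains and carries tubulin to the tip. Its 10 core genes had lower estimates for 7 in LP245/+ against LP+/+ (median -0.14) and for 8 against LPfl/+ (median -0.19). Ift81, which binds tubulin together with IFT74, had 118.8, 127.7 and 109.2 normalized counts in LP+/+, 159.1 and 133.3 in LPfl/+ livers, with 70.27, 100 and 103.9 in LP245/+. The 3 genotypes did not overlap, with LPfl/+ highest and LP245/+ lowest. The log2 fold change of Ift81 was -0.67 ± 0.21 in LP245/+ against LPfl/+, -0.36 ± 0.19 in LP245/+ against LP+/+ and 0.31 ± 0.21 in LPfl/+ against LP+/+. The last 2 were -0.22 without LP245/+ replicate 1 and 0.17 without LPfl/+ replicate 1. Its partner Ift74 was at -0.15 ± 0.20 in LP245/+ against LP+/+, with overlapping livers.

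Hspb11 encodes IFT25, which pairs with IFT27 and is known for a role in hedgehog signaling. It had 86.95, 97.01 and 79.05 normalized counts in LP+/+, 118.5 and 125.2 in LPfl/+ livers, with 89.9, 106.1 and 99.79 in LP245/+. Both LPfl/+ livers were above the other 6, with a log2 fold change of 0.48 ± 0.18 against LP+/+. Its partner Ift27 was at 0.04 ± 0.22 in the same comparison. Ift46 had 872.4, 565.7 and 727.5 in LP+/+, 805.5 and 759.3 in LPfl/+ livers, with 650, 647.7 and 632.4 in LP245/+. The LP+/+ livers spanned all of the others, and the log2 fold change of LP245/+ against LP+/+ was -0.16 ± 0.14.

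Ttc26 had 24.15, 23.05 and 18.82 normalized counts in LP+/+, 18.24 and 25.24 in LPfl/+ livers, with 19.63, 27.28 and 11.2 in LP245/+, and the groups overlapped. Ttc30b has close relatives (Ttc30a1 and Ttc30a2), so reads may have been split among them, and its value is uncertain. The peripheral IFT-B genes, which tie the trains to kinesin, had median log2 fold changes of -0.02, 0.04 and 0.01 in the 3 comparisons. On log2 CPM with 0.5 added, Ift57 had the largest within-genotype SD of the members (0.303). The added 0.5 shrinks the spread of genes with fewer reads, such as Bbs12, so this rank holds for that scale only. Ift57 had 15.46, 21.13 and 25.41 normalized counts in LP+/+, 19.25 and 13.13 in LPfl/+ livers, with 9.3, 13.14 and 26.48 in LP245/+. LP245/+ replicate 3 was its highest liver and LP245/+ replicate 1 its lowest.

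Dynein-2, the return motor, had 3 of 4 genes with lower estimates in LP245/+ against LP+/+ (median -0.25). Wdr60, an intermediate chain, had 118.8, 145 and 147.7 normalized counts in LP+/+, 121.6 and 155.5 in LPfl/+ livers, with 93, 97 and 117.1 in LP245/+. Every LP245/+ liver was below every other liver, LP245/+ replicate 3 and LP+/+ replicate 1 being close neighbours. The log2 fold change of Wdr60 was -0.41 ± 0.18 against LP+/+ and -0.43 ± 0.20 against LPfl/+. The latter was -0.73 with the series as a covariate and -0.24 without LPfl/+ replicate 2. Wdr34, the other intermediate chain, had 112.1, 107.6 and 112 in LP+/+, 121.6 and 83.81 in LPfl/+ livers, with 124, 103.1 and 105.9 in LP245/+, a log2 fold change of 0.02 ± 0.18 against LP+/+.

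Dync2li1, the light intermediate chain, had 28.02, 26.89 and 22.59 normalized counts in LP+/+, 19.25 and 13.13 in LPfl/+ livers, with 17.57, 16.17 and 19.35 in LP245/+. All 5 LPfl/+ and LP245/+ livers were below all 3 LP+/+ livers. The log2 fold changes against LP+/+ were -0.53 ± 0.28 in LP245/+ and -0.66 ± 0.32 in LPfl/+, the latter being -0.43 without LPfl/+ replicate 2. The heavy chain Dync2h1 was steady, with the smallest within-genotype SD of the members (0.0574 on log2 CPM with 0.5 added). Its log2 fold change was -0.08 ± 0.10 in LP245/+ against LP+/+.

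The heterotrimeric kinesin-2 is made of Kif3a, Kif3b and Kifap3, and its motors also move cargo outside cilia. Kif3b had 633.8, 576.3 and 610.8 normalized counts in LP+/+, 544.1 and 527.1 in LPfl/+ livers, with 479.5, 533.5 and 505.1 in LP245/+. Again, all 5 LPfl/+ and LP245/+ livers were below the 3 LP+/+ livers, by a log2 fold change of -0.25 ± 0.09 in LP245/+ and -0.17 ± 0.10 in LPfl/+. Its partners Kif3a and Kifap3 were at -0.07 ± 0.15 and -0.10 ± 0.13 in LP245/+ against LP+/+, with overlapping livers.

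The 7 BBSome subunits had median log2 fold changes of -0.06, -0.02 and -0.02 in the 3 comparisons. Ttc8, which encodes BBS8, had 166.2, 192.1 and 200.5 normalized counts in LP+/+, 148.9 and 131.3 in LPfl/+ livers, with 188.1, 184.9 and 158.9 in LP245/+. Both LPfl/+ livers were the lowest of the 8, at -0.40 ± 0.17 against LP+/+, and LP245/+ was at 0.34 ± 0.17 against LPfl/+. With the series as a covariate these were -0.24 and 0.10. Bbs4 had 97.58, 88.36 and 139.3 in LP+/+, 127.7 and 140.4 in LPfl/+ livers, with 149.8, 122.3 and 95.72 in LP245/+, and its groups overlapped. The estimates of Bbs1 and Bbs2 in LP245/+ against LP+/+ were -0.37 ± 0.29 and -0.37 ± 0.21, and that of Bbs9 was 0.00217 ± 0.144.

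Bbs10 and Bbs12 encode chaperonin-like proteins that help to assemble the BBSome. Bbs12 had few reads, with 8.695, 10.57 and 1.882 normalized counts in LP+/+, 16.21 and 11.11 in LPfl/+ livers, with 9.3, 8.083 and 9.165 in LP245/+. Its log2 fold change in LPfl/+ against LP+/+ was 0.96 ± 0.58, and LP+/+ replicate 3 was far below the other livers. Without that liver the log2 fold change was 0.50. Exons of 6 members overlap those of another gene, on the same strand for Bbs12, Cluap1 and Kif17 and on the opposite strand for Bbs12, Cluap1, Ift88, Ift57 and Bbs4. Their counts are uncertain to that extent, since the strand that was counted is not given in the sources used here. Bbs10 was at -0.42 ± 0.21 in LP245/+ against LPfl/+. Arl6, the GTPase that recruits the BBSome to membranes, was at 0.17 ± 0.23 in LP245/+ and 0.15 ± 0.25 in LPfl/+ against LP+/+.

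Added over all 41 genes, the level was 304.5, 291.3 and 301.8 CPM in the LP+/+ livers, 303.7 and 300.6 in the LPfl/+ livers, and 281.3, 276.1 and 280.2 in the LP245/+ livers. The LP245/+ sums were below those of the other genotypes, and the sum of cholangiocyte markers overlapped among the 3 genotypes. The sum of 8 macrophage markers was 347.8 to 407.5 CPM in LP+/+, 338.4 to 468.7 in LPfl/+ and 299.1 to 363.7 in LP245/+, and all 8 had lower estimates in LP245/+ than in LP+/+. Against LPfl/+, 7 of the 8 were lower in LP245/+ (median log2 fold change -0.34). The sum of 8 endothelial markers was 675.4 to 794.8 CPM in LP+/+, 506.5 to 671.5 in LPfl/+ and 684.6 to 799.8 in LP245/+, and all 8 had higher estimates in LP245/+ than in LPfl/+ (median 0.24). No marker of either list was at 0 in every liver, and the part of these cells in the members' values was not tested.

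**Figure D4:**
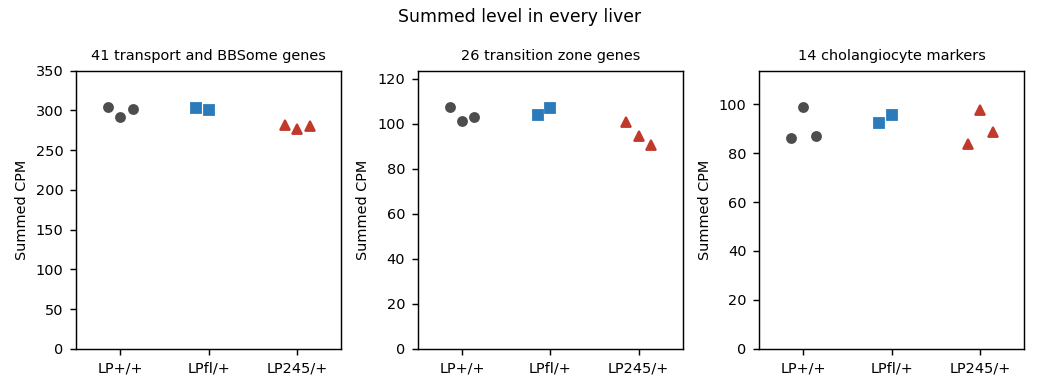
Summed CPM per liver of the 41 genes, of 26 transition zone genes and of 14 cholangiocyte markers; each point is 1 liver and the axes start at 0. The members' sums are 276.1 to 281.3 in LP245/+ and 291.3 to 304.5 in LP+/+. The sums of cholangiocyte markers, made up mostly of Pkhd1, Slc4a2 and Spp1, overlap. The part of cholangiocytes in the members' sums was not tested.

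Other genes of the cilium were listed by role. The transition zone is the gate at the base of the cilium. Of its 25 genes tested, 20 had lower estimates in LP245/+ against LP+/+ (median -0.16), 13 in LPfl/+ against LP+/+ (median -0.07) and 19 in LP245/+ against LPfl/+ (median -0.20). None passed the cutoff. In these 3 comparisons an unadjusted p below 0.05 was reached by 1 lower, 1 higher and 3 lower genes. Of all genes, 2.38%, 4.22% and 4.44% reached it in those directions. Their sum was 90.38 to 101.0 CPM in LP245/+ and 101.3 to 107.5 in LP+/+. Tctn3, a tectonic of this gate, had 57.97, 33.62 and 40.47 normalized counts in LP+/+, 38.5 and 31.3 in LPfl/+ livers, with 20.67, 23.24 and 30.55 in LP245/+. Every LP245/+ liver was below every other liver, and the log2 fold change was -0.81 ± 0.29 against LP+/+. Cc2d2a had 295.6, 303.5 and 321.9 in LP+/+, 361.7 and 337.3 in LPfl/+ livers, with 219.1, 303.1 and 216.9 in LP245/+, a log2 fold change of -0.50 ± 0.16 against LPfl/+. Tmem218 and Tmem67, also of the gate, were at -0.55 ± 0.24 and -0.45 ± 0.19 in the same comparison, and Rpgr was at 0.51 ± 0.21 in LPfl/+ against LP+/+.

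The 31 other transport genes tested had a median of -0.11 in LP245/+ against LP+/+, with 20 lower. Lztfl1, which regulates BBSome entry, was at 0.33 ± 0.12 in LPfl/+ against LP+/+. The 23 basal body genes tested had medians of 0.03, 0.04 and -0.02 in the 3 comparisons. Sclt1, of the distal appendages, was at 0.52 ± 0.17 in LPfl/+ against LP+/+ and -0.40 ± 0.17 in LP245/+ against LPfl/+. None of the genes of these lists passed the cutoff in any comparison.

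Of 6 RFX factors tested, 4 had lower estimates in LP245/+ against LP+/+ (median -0.15), 2 in LPfl/+ against LP+/+ (median 0.08) and 4 in LP245/+ against LPfl/+ (median -0.16), and none passed the cutoff. Rfx4 had 317.9, 201.7 and 312.4 normalized counts in LP+/+, 254.3 and 154.5 in LPfl/+ livers, with 97.14, 212.2 and 128.3 in LP245/+. LP245/+ replicate 2 lay within the LP+/+ range, and the log2 fold change against LP+/+ was -0.91 ± 0.31. Rfx3, an RFX factor of ciliated cells, had 199, 173.8 and 181.6 in LP+/+, 225.9 and 167.6 in LPfl/+ livers, with 224.2, 215.2 and 188.4 in LP245/+, which is 0.19 ± 0.16 against LP+/+. Foxj1, the regulator of motile cilia, had 8 counts or fewer in every liver and was not tested.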

How the data were processed

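RNA of 8 mouse livers was sequenced from TruSeq stranded libraries as paired-end reads. The authors aligned reads with STAR to GRCm38 and deposited read counts per gene without normalization. The STAR version, the GENCODE release and the strand counted are not given in the sources used here. The counts are whole numbers, and all 8 columns matched 1 sample label each.

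Symbols, exons and positions were taken from GENCODE M21, joined on unversioned identifiers, and 49326 of 49585 genes had a symbol. The genotypes were compared in edgeR 4.0.16 under R 4.3.3 (TMM, filterByExpr, quasi-likelihood F test), with all 8 livers in 1 fit and Benjamini-Hochberg adjustment over 16496 genes. DESeq2 1.42.0 gave the size factors of the normalized counts and an alternative test. Levels between genes are TMM-scaled CPM divided by the length of the union of a gene's exons. Fits were tested on simulated data. Promoters were searched in RefSeq sequence (GRCm38.p6) with Python 3.11.15. Plots were drawn with matplotlib 3.10.9.

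The members, the gene lists and the tests were chosen with earlier results of these data known. Full values are given for members with an unadjusted p below 0.05 in a comparison, for the 3 highest and 3 lowest log2 fold changes of each comparison, and for the 3 highest and 3 lowest levels. Of the other lists, genes are named that passed the cutoff or that had an unadjusted p below 0.05 and were among the 3 largest changes of their list. Rfx3, Foxj1, Krt19, Smo, Gli1 and members outside these rules were chosen for their role or after their values were seen. The floor of detection was 3 counts, which covers counting error only. Same-numbered livers showed no joint deviation (7 correlations between -0.0822 and 0.0339), and replicate numbers were not treated as pairs. Deviations were taken from the means of groups of 2 or 3 livers. The correlations are therefore tied to each other and cannot exclude pairing. Symbols of the lists that were not matched are not analysed here. The replicates are separate mice, and errors rest on the spread between them. The SE of a log2 fold change was taken as its size divided by the square root of edgeR's F statistic. It is an uncertainty of the estimate.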

Additional observations from a re-analysis of the deposited data

How the results depend on the processing

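No member passed the cutoff with DESeq2, its size factors, other filters, fewer genotypes in the fit, the series of libraries or the replicate block, or with any 1 liver left out. Of all genes, 1, 0 and 0 passed it in the 3 comparisons, against 10, 9 and 56 with DESeq2, 20, 14 and 122 with no filter, 3, 3 and 10 with the library series as a covariate, and 51 in the last with only its 2 genotypes. Without LP+/+ replicate 1 these were 3, 59 and 47. The number of members with an unadjusted p below 0.05 changed too, and so did the share of all genes with one, which was 5.93%, 6.89% and 8.51% and ranged from 2.7% to 7.76%, from 3.13% to 11.7% and from 4.11% to 10.8%. In LP245/+ compared with LP+/+ it was 2, against 1 with DESeq2 and 1 with the library series as a covariate, and 1 to 3 with 1 liver left out (1 without LP+/+ replicate 1). In LPfl/+ compared with LP+/+ it was 2, against 0 with DESeq2, 1 with no filter, 3 with at least 10 counts in every liver, 0 with the series as a covariate and 0 to 3 with 1 liver left out. It came to 0 without LP+/+ replicate 3 or LPfl/+ replicate 1, to 1 without LP+/+ replicate 2, LPfl/+ replicate 2 or LP245/+ replicate 2, and to 3 without LP+/+ replicate 1. In LP245/+ compared with LPfl/+ it was 4, against 5 with no filter, 6 with only the 2 genotypes compared, 1 with the series as a covariate and 1 to 7 with 1 liver left out (7 without LP+/+ replicate 1, where the share of all genes was 10.3%, 1 without LPfl/+ replicate 1, 2 without LP245/+ replicate 2).

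The median log2 fold change of the members ranged with 1 liver left out from -0.152 to -0.0931, from -0.0171 to 0.0561 and from -0.128 to -0.0809 in the 3 comparisons. With the series as a covariate the last was -0.122. The second median, 0.018 with all livers, turned to -0.0171 without LP+/+ replicate 2 and to -0.00233 with the series as a covariate, and was 0.0561 without LP+/+ replicate 1. Replicate numbers were not used as pairs in the main fit. The fit with a replicate block gave 3, 0 and 4 members with an unadjusted p below 0.05 in the 3 comparisons. The share of members' promoters with an RFX motif was 37.8% for GTTGCC, 0% for GTTNCCATG and 8.11% for the spaced form. The cause of these changes was not tested. The 3 highest levels per length kept their order with the longest transcript as the length (Ift20 32.2, Ift52 10.3, Ift46 5.99 CPM per kilobase). Depth limits Kif17, Bbs12, Ift57, Dync2li1 and Ttc26, which had the fewest reads.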

Other observations

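Hedgehog signaling passes through the primary cilium. Ptch1, the receptor and a target gene of the pathway, had 805.8, 829.9 and 822.5 normalized counts in LP+/+, 693 and 723 in LPfl/+ livers, with 1027, 977.1 and 943.9 in LP245/+. The 3 genotypes did not overlap, with LP245/+ highest and LPfl/+ lowest. Its log2 fold change was 0.48 ± 0.09 in LP245/+ against LPfl/+ (adjusted p = 0.362, edgeR) and 0.27 ± 0.08 against LP+/+ (adjusted p = 0.795, edgeR), short of the cutoff. Smo, which transduces the signal in the cilium, was at -0.36 ± 0.19 in LP245/+ against LP+/+, and the target gene Gli1 had at most 8 counts in any liver. Of 11 hedgehog genes tested, 6 had higher estimates in LP245/+ than in LP+/+ (median 0.10).

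Genes of motile cilia, which the liver is not known for, had low sums. The 15 genes in the table added up to 1.968 to 5.462 CPM per liver. Dnah5, an axonemal dynein, was counted 37, 3 and 10 times in LP+/+, 41 and 27 in LPfl/+ livers, with 8, 2 and 0 in LP245/+. Dnah11, a further axonemal dynein, had 11, 20 and 22 in LP+/+, 32 and 45 in LPfl/+ livers, with 29, 9 and 6 in LP245/+. Rsph9, of the radial spoke, had 9, 6 and 9 in LP+/+, 16 and 14 in LPfl/+ livers, with 9, 13 and 7 in LP245/+. None of the 7 motile cilium genes tested passed the cutoff in any comparison.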
